A study of Mus musculus with 9 samples.

Results

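The comparison described here set 3 RNA-Seq libraries of SAM2, a line of mouse embryonic fibroblasts (MEFs) labelled with the genotype *Hnrnpk*_SAM, against 3 libraries of MEFs with the empty vector, the controls. These are 6 of the 9 libraries of the series, and all 15184 listed genes were compared. The other 3 libraries come from SAM1, the second line with the same genotype label. They served as context for what was particular to SAM2. They also entered the estimate of the spread behind the SEs and p-values of the limma test. All cells were wild-type MEFs of midgestation embryos that carried lentiMPHv2 and lentiSAMv2 and were selected with blasticidin and hygromycin. The lentiSAMv2 vector held a single-guide RNA (sgRNA) against *Hnrnpk* in the SAM lines and a nontargeting sgRNA in the control cells, so the vectors, the activator proteins and the drugs were common to all 9 libraries. Each line was made with a separate sgRNA, and the labels do not say which line carried which. The study's methods print one and the same sequence for the second *Hnrnpk* sgRNA and for the nontargeting sgRNA, so the guides of the lines and of the controls could not be checked from the sources used here. The sources used here state neither whether a line is a clone nor whether its libraries came from separate cultures, so every p-value below measures only the spread between libraries, which may be technical. The study describes abnormal karyotypes in its SAM MEFs, and levels were therefore also read by chromosome position.

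HNRNPK is an RNA- and DNA-binding protein with KH domains that takes part in transcription, splicing, mRNA stability and translation, and that works with p53 after DNA damage. Synergistic activator mediator (SAM) technology uses a catalytically inactive Cas9 and an sgRNA that recruits activator proteins to the start of a chosen gene, which is then transcribed from its own locus. MEFs are primary connective tissue cells that make collagen-rich matrix, contract, and proliferate for a limited number of passages.

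The values are normalized counts, that is reads per gene divided by a size factor of the library. They summed to 43909125 to 49041969 per library, and they were whole multiples of 1 read, which gave a depth of 41759636 to 49026626 reads per library. All 12 fibroblast markers were listed. Their summed level was 1147600 to 1249500 in the empty vector libraries and 1261200 to 1302000 in SAM2. The sum does not describe each marker. By the limma test 4 of the 12 were higher in SAM2 and 5 lower (35.2% and 35.3% of all genes), the latter including *Dcn* (means of 11815 and 2538). Of the 7 macrophage markers only *Cd68*, *Csf1r* and *Lyz2* were listed, and of the 7 epithelial markers only *Cdh1* and *Krt8*, the latter with sums of 42.1 to 50.1 in the empty vector and 42.7 to 52.4 in SAM2. The 3 macrophage markers summed to 607 to 728 and 695 to 739. Endothelial markers, of which 5 of 6 were listed, summed to 428 to 468 in the empty vector, 907 to 977 in SAM2 and 4922 to 5343 in SAM1. Chondrocyte markers (4 of 6 listed) summed to 1994 to 2074 in the empty vector and 4306 to 4460 in SAM2, and adipocyte markers (4 of 6) to 1082 to 1115 and 1621 to 1666. For skeletal muscle, 2 of 6 markers were listed, with sums of 88.8 to 127 and 412 to 457, and for neural cells 2 of 6, with sums of 1121 to 1374 and 1099 to 1158. The part of other cell types in the results was not tested. In bulk RNA, fewer cells of a type and less RNA per cell cannot be told apart.

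The targeted gene was examined first. *Hnrnpk* (chr13:58536691-58551339 in GRCm39, minus strand) had 25058, 26098 and 26164 normalized counts in the controls and 26608, 26859 and 26221 in SAM2. The 3 SAM2 libraries lay above the 3 empty vector libraries, by a margin smaller than the spread within the controls, and the difference did not pass the limma test (log2 fold change 0.044, SE 0.027, adjusted p = 0.159). It passed when the libraries were brought to a common distribution by quantile normalization (log2 fold change 0.22, adjusted p = 4.59e-06) and when the median of each chromosome was subtracted (0.21, adjusted p = 2.75e-05). The level in SAM1 was 24102, 24044 and 23619, below SAM2 (log2 difference 0.15, SE 0.027, adjusted p = 0.000288).

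The change next to the target was larger than that in the target itself. *Rmi1*, whose product is a subunit of the BLM helicase complex that resolves recombination intermediates, starts on the opposite strand and shares 1293 bases with *Hnrnpk*. It had 339.6, 352 and 349 normalized counts in the controls and 822, 754 and 761 in SAM2 (log2 fold change 1.16, SE 0.051, adjusted p = 3.34e-10), and every SAM2 library lay above every control. Because the 2 genes overlap head to head, and the strand setting of the read counting is not given in the sources used here, reads of one can be counted for the other. The rise was also seen in SAM1 (720.4, 698 and 679.7). Among the 10 listed genes within 1 Mb of *Hnrnpk*, *Rmi1* and *Klhl3* (log2 fold change 1.15) were higher in SAM2, and *Hnrnpa0* (−0.31), *Idnk* (−0.36) and *Ubqln1* (−0.19) were lower, although the call of *Ubqln1* ended (−0.034, adjusted p = 0.279) once the chromosome median was subtracted. These neighbours were named after their values were seen.

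Of the genes tied to nucleoli and p53 in the study, nucleolin (*Ncl*) rose from 31643, 32443 and 31349 to 37745, 37845 and 38638 (log2 fold change 0.26, SE 0.030, adjusted p = 4.49e-06). The rRNA methyltransferase gene *Fbl* fell in the test (1162, 1252 and 1111 against 1046, 1056 and 1016, log2 fold change −0.18), although the sign turned to 0.059 once the median of its chromosome was subtracted. *Npm1*, which encodes a nucleolar chaperone, fell from 28317, 32468 and 30914 to 24287, 24233 and 24402 (log2 fold change −0.33). The largest change of the group was in *Trp53*, the gene of p53, with 1079, 1114 and 1059.6 normalized counts in the controls and 2357, 2404 and 2332 in SAM2 (log2 fold change 1.12, SE 0.034, adjusted p = 8.12e-12). *Trp53* lies in a window of 25 listed genes on chromosome 11 (68.9 to 69.5 Mb) in which 20 genes were higher and 1 lower, with a median log2 fold change of 0.82, and the part of this stretch in the rise of *Trp53* was not tested. *Cdkn1a*, the p21 gene and a target of p53, went the other way, from 1563, 1647 and 1491 to 1209, 1197 and 1294 (log2 fold change −0.34, adjusted p = 2.94e-05). *Mdm2*, the ubiquitin ligase for p53, was at 4988, 4822 and 4912 against 4795, 4696 and 4993 and did not pass the test (adjusted p = 0.498). *Myc* differed by −0.071 on the log2 scale (adjusted p = 0.0218), a call lost without empty vector replicate 2 (adjusted p = 0.0646) or SAM2 replicate 1 (0.0885), and its sign turned under quantile normalization (0.028). *Myc* was lower in SAM1 (log2 fold change −0.65).

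Across all genes the SAM2 line differed widely from the empty vector. At an adjusted p below 0.05 in the limma test, 10699 of 15184 genes were called (70.5%), of which 5340 were higher (35.2%) and 5359 lower (35.3%). The median log2 fold change over all genes was −0.0015, a value that the size factors hold near 0. A change of at least 2-fold was found for 1293 genes that rose (8.52%) and 733 that fell (4.83%). Against this background the number of genes called in a group carries little information on its own, and the direction and the size of its members are given below. Each count of genes higher or lower in a list is to be read beside these 35.2% and 35.3%.

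**Figure D1:**
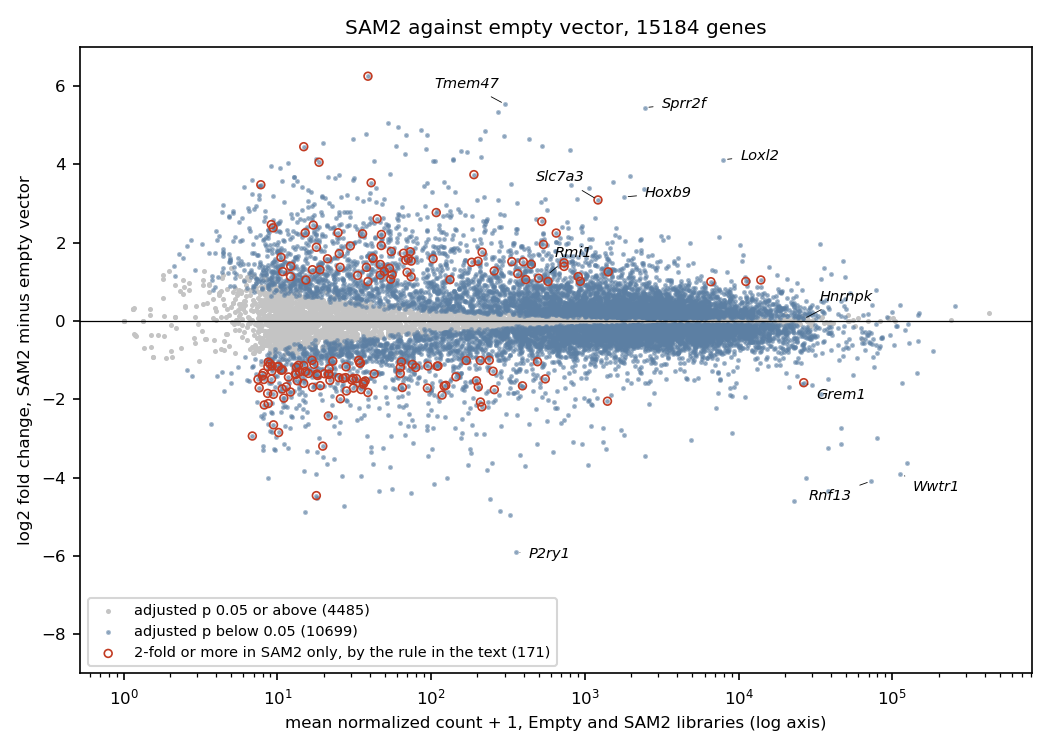
Log2 fold change of SAM2 against the empty vector for each of the 15184 genes (vertical axis), against the mean normalized count + 1 over the 6 libraries on a log axis; blue points have an adjusted p below 0.05, grey points do not, and red rings mark 171 genes changed at least 2-fold in SAM2 and by less than 0.5 (log2) in SAM1. *Hnrnpk* lies near 0, while *Sprr2f*, *Tmem47* and *Loxl2* are far above it and *P2ry1*, *Wwtr1* and *Rnf13* far below.

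Genes of the cornified envelope were prominent among the largest rises in SAM2. This envelope is the cross-linked protein layer of keratinized skin cells. Small proline-rich proteins of the *Sprr2* family, which are substrates of transglutaminases in that layer, made up 4 of the 10 largest rises. *Sprr2f* had 95.1, 119.7 and 112 normalized counts in the controls and 4858, 4810.5 and 4706 in SAM2 (log2 fold change 5.45, SE 0.15, adjusted p = 4.29e-12). In SAM1 it was near absent (0.949, 1.97 and 0.977). *Sprr2b* went from 13.3, 10.5 and 12.9 to 516, 541 and 526 (log2 fold change 5.33), *Sprr2e* from 15.3, 9.45 and 18.7 to 416, 452 and 429.6 (4.85), and *Sprr2k* from 4.09, 6.3 and 7.01 to 180, 181 and 176 (4.75). The groups did not overlap for any of these genes. *Sprr2* genes are near-identical copies, and multiply mapping reads were kept at alignment, so how the reads divide among the copies is uncertain.

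The neighbouring genes of the epidermal differentiation complex on chromosome 3 were read together, and the genes in the next sentences were chosen after their values were seen. *Lelp1*, a late cornified envelope-like gene in the list of largest rises, had 1.02, 2.1 and 3.5 normalized counts in the controls and 93, 103 and 105 in SAM2 (log2 fold change 5.05). A fold against so few reads depends on the added 1. *Sprr2d* (15.6 to 399), *Sprr2g* (73.5 to 1533) and *Lor*, the gene of loricrin (44.9 to 1002), rose in their mean normalized counts, and their SAM1 means were 0.977, 10.7 and 3.58. *Sprr1a* (log2 fold change 3.54) and *Prr9* (4.33) rose as well, whereas *Crct1* fell (−1.76). Of the late cornified envelope genes, *Lce1g* had means of 9.8 in the controls, 19 in SAM2 and 261 in SAM1, and *Lce1h* of 1.77, 3.79 and 117. Both were far below SAM1 in SAM2. Against the controls the call of *Lce1g* was lost without SAM2 replicate 1 (adjusted p = 0.054) and that of *Lce1h* under edgeR (0.182), DESeq2 (0.221) and other alternatives. In windows of 25 consecutive listed genes along each chromosome, the window at 92.0 to 94.5 Mb of chromosome 3 had the highest median of all 591 (2.32), with 22 of 25 genes higher and 2 lower. The median of the same window was 0.11 in SAM1 against the empty vector. The 3 genes of this window with the most normalized counts, not corrected for length, were *S100a10* (log2 fold change −0.31), *S100a11* (0.15, a call lost at an adjusted p of 0.054 without empty vector replicate 2 and 0.0719 without SAM2 replicate 2) and *Snx27* (0.26). They encode calcium-binding proteins and an endosomal sorting protein and are not specific to keratinocytes. Of the epithelial markers, *Epcam*, *Krt5*, *Krt14* and *Krt18* were not listed, whereas *Krt8* was. Other keratin genes are not among these markers.

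The promoters of the *Sprr2* genes were inspected because these genes rose together in SAM2, with SAM1 means of 18.8 or less. A RefSeq promoter (250 bases before to 50 after the start, GRCm38.p6) was matched for 7 of the 8 listed *Sprr2* genes. The octamer ATTTGCAT, the letters read by POU domain factors, was found on either strand in 6 of 7 (85.7%), against 1.75% of all 27025 promoters. AP-1 letters (TGANTCA, both strands) were also in 6 of 7, against 7.93% of all. These copies share most of their promoter sequence, so the 6 matches are not independent. A match is a description of letters and no binding was measured. The octamer is in capitals in the windows of 30 bases below, 5′ to 3′ on the strand of the gene, shown because it starts at nearly the same place, −112 to −108 from the start of the gene, in each of the 6. *Sprr2g*, which rose too, did not hold these letters, and *Sprr2a3* was not matched.
Sprr2b (chr3:92316586-92316615, plus strand): gttacggatgaATTTGCATttgtgttagga
Sprr2d (chr3:92339021-92339050, plus strand): gtcatacatgcATTTGCATtttggtttgga
Sprr2e (chr3:92352024-92352053, plus strand): gtcatgcatggATTTGCATtttggtttgga
Sprr2f (chr3:92365064-92365093, plus strand): gtcatgcatggATTTGCATtttgattggga
Sprr2h (chr3:92385565-92385594, plus strand): gttaaacacagATTTGCATtttggttatga
Sprr2k (chr3:92432462-92432491, plus strand): gttatatatggATTTGCATttttgttagga

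The other large rises were in genes with differing roles. *Tmem47*, a membrane protein of cell junctions, had the largest rise of all named by the rule, from 12.3, 9.45 and 14 to 583, 622 and 572 normalized counts (log2 fold change 5.54, SE 0.13, adjusted p = 6.56e-13), and had a mean of 223 in SAM1. *Kap*, an androgen-regulated gene of kidney, went from 20.5, 24.2 and 17.5 to 568, 567 and 579.9 (log2 fold change 4.73, SE 0.19, adjusted p = 1.18e-10) and was at 0 in all 3 SAM1 libraries. The SAM2 mean of *Kap* was at least 196-fold higher than SAM1, taking a floor of 3 reads per library for the latter. *Sec16b*, which organizes exit sites of the endoplasmic reticulum, rose from a mean of 4.71 to 166. *Lypd6*, a membrane-anchored modulator of signalling, and *Slc24a3*, a sodium-calcium exchanger, rose from 3.14 and 4.82 to 117 and 130.2, again from very few reads. In SAM1 these 3 genes had means of 149, 60.5 and 53.4.

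**Figure D2:**
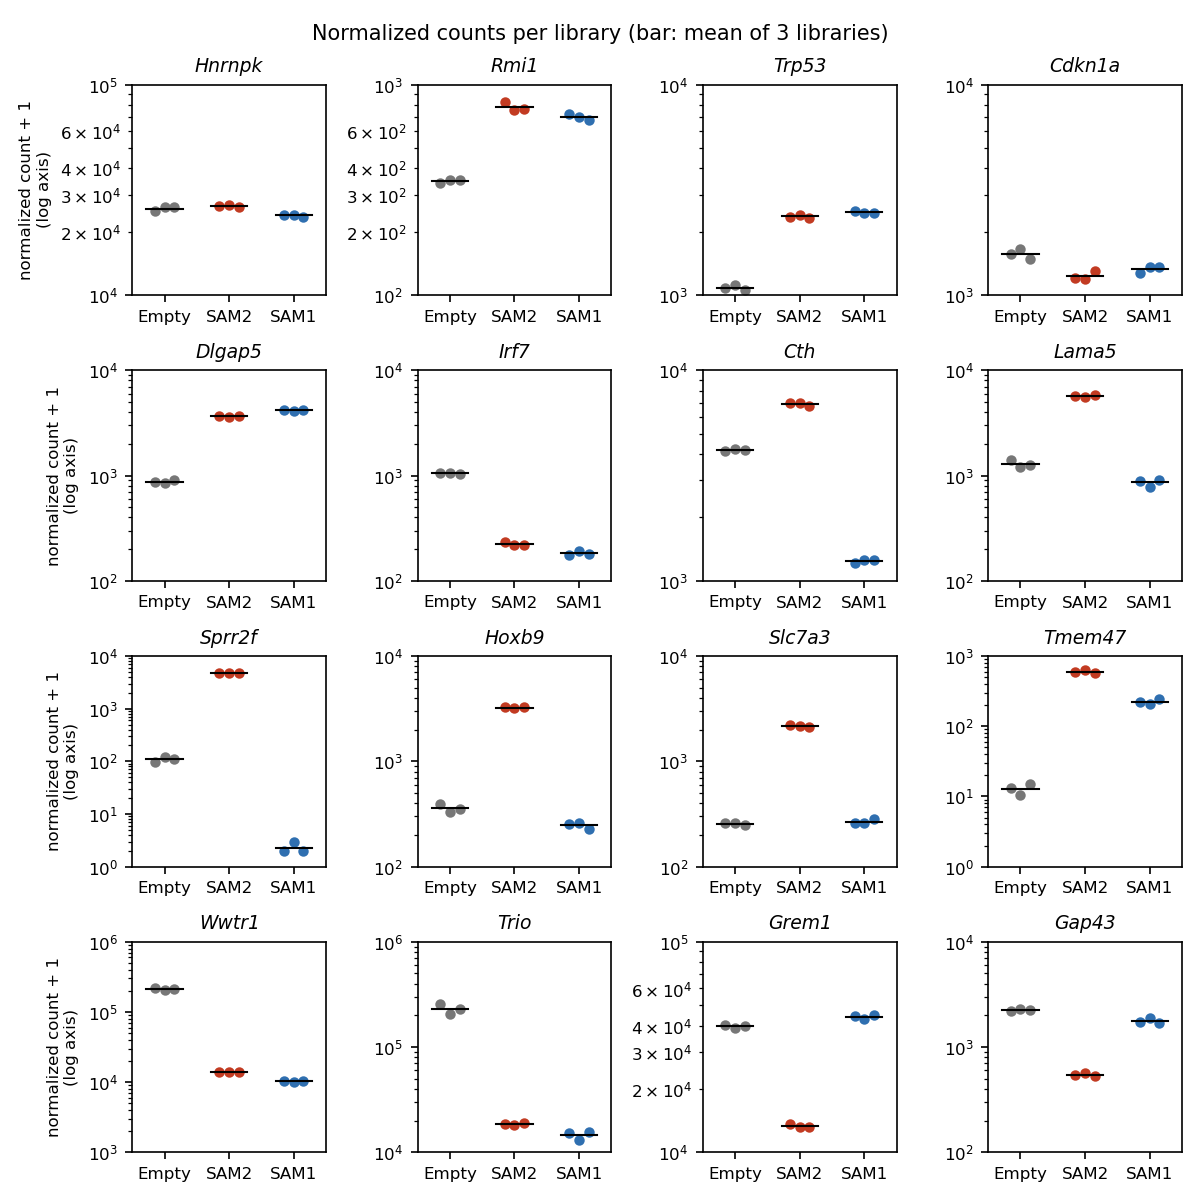
Normalized counts + 1 of 16 genes in each library (vertical log axis), with 1 point per library, a bar at the mean, and the empty vector, SAM1 and SAM2 side by side. The 3 points of a group nearly coincide, and *Sprr2f* sits between 4706 and 4858 in SAM2 and at no more than 119.7 in the other groups, while *Wwtr1* is low in both SAM lines.

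Of the 10 largest falls, 4 lay in 2 short stretches of the genome and 6 were single genes. The lowest was *P2ry1*, a receptor for extracellular ADP, with 668, 696 and 728 normalized counts in the controls and 7.91, 14.8 and 10.2 in SAM2 (log2 fold change −5.9, SE 0.19, adjusted p = 1.74e-11). *Serpina3n*, a secreted serine protease inhibitor, fell from 591, 506 and 525 to 17.8, 16.7 and 18.6 (log2 fold change −4.86). *Penk*, the precursor of enkephalins, fell from 98.2, 116 and 94.6 to 10.9, 5.56 and 0.928 (−4.28). All 3 genes were low in every SAM2 library and high in every control. *Nkx6-1*, a homeobox transcription factor, had means of 459.9 and 19.2, and *Ccdc85a* of 141 and 6.0. *Rps6ka6*, the gene of the kinase RSK4, set SAM2 apart from SAM1: it fell from 196, 203 and 195 to 10.9, 10.2 and 9.28 (log2 fold change −4.16, SE 0.14, adjusted p = 1.81e-11) while its log2 fold change was −0.65 in SAM1.

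On chromosome 3, *Commd2*, *Pfn2* and *Rnf13* of the largest falls lie beside *Wwtr1*, which encodes TAZ, a coactivator of the Hippo pathway. *Wwtr1* had 216588, 203745 and 215415 normalized counts in the controls and 14181, 13922 and 13885 in SAM2 (log2 fold change −3.92, SE 0.031, adjusted p = 2.15e-17). The profilin gene *Pfn2*, which acts on actin, fell from 69219, 75216 and 73318 to 3695, 3584 and 3521 (−4.33), the ubiquitin ligase gene *Rnf13* from 136089, 134654 and 142198 to 8050.5, 8167 and 8061 (−4.09), and *Commd2* from 41660.2, 46793 and 44505 to 1832, 1848 and 1808 (−4.6). No SAM2 library came near a control library for any of these genes. Of 20 listed genes within 2 Mb of *Wwtr1*, 7 fell at least 4-fold, and their sum took 1.10% to 1.14% of all normalized counts in the control libraries but 0.0863% to 0.0876% in SAM2. The share in SAM1 was 0.0840% to 0.0878%. The genes on either side changed little or the other way: *Tsc22d2* (log2 fold change −0.40), *Selenot* (−0.14), *Mab21l1* (0.53) and *Nbea* (0.47), which were chosen after their values were seen.

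A stretch of chromosome 15 behaved in the same way. *Trio*, a guanine nucleotide exchange factor for small GTPases, had 258601, 205945 and 228085 normalized counts in the controls and 18532, 18183 and 19029.5 in SAM2 (log2 fold change −3.63). *Ank*, a pyrophosphate transporter, was at a log2 fold change of −3.13, *Otulin*, a deubiquitinase of linear chains, at −4.02, and *Dnah5*, a dynein heavy chain of motile cilia, fell from 661, 586 and 625 to 19.8, 11.1 and 31.5 (−4.95). Of 11 listed genes within 2 Mb of *Trio*, 6 fell at least 4-fold, and together they took 0.704% to 0.805% of the empty vector libraries against 0.0685% to 0.0699% of SAM2. *Fbxl7*, in the same stretch, rose from 83.9, 70.4 and 81.8 to 526, 506 and 513 (2.7). *Trio*, *Ank*, *Otulin* and *Fbxl7* were chosen after their values were seen. Both stretches were high in the empty vector cells and low in both SAM lines. Copy number was not measured, and the part of a difference in copy number between the lines was not tested.

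**Figure D3:**
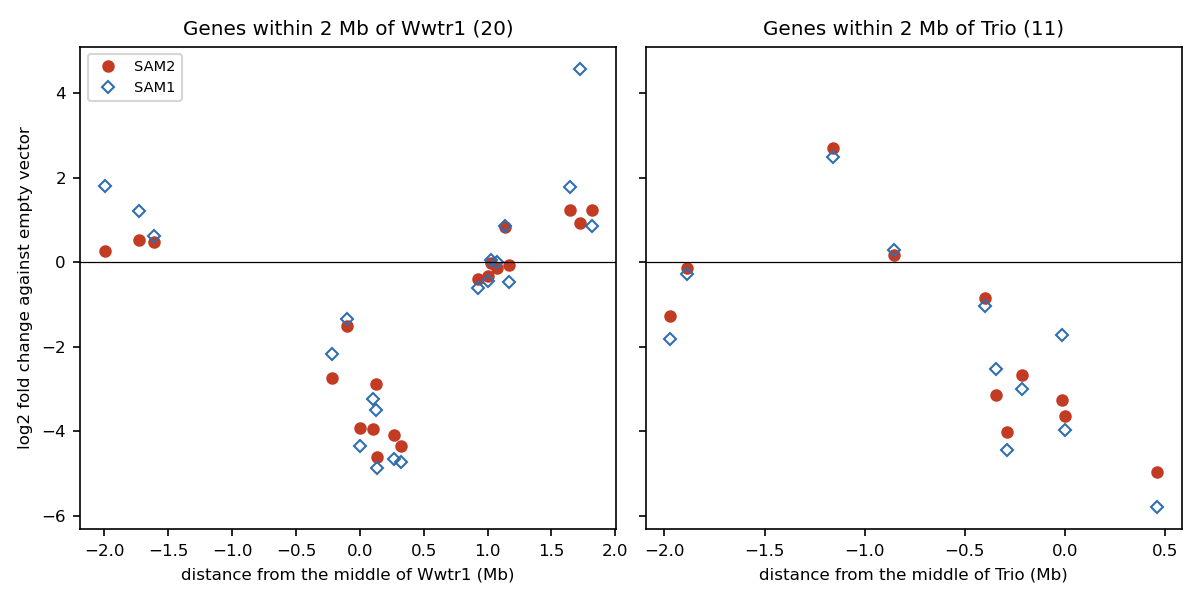
Log2 fold change against the empty vector in SAM2 (filled points) and SAM1 (open diamonds) for the listed genes within 2 Mb of *Wwtr1* on chromosome 3 (20 genes) and of *Trio* on chromosome 15 (11 genes), placed by distance in Mb. Near distance 0 both lines lie far below 0, with *Wwtr1* at −3.92 and *Trio* at −3.63 in SAM2. Farther out most points return towards 0 or lie above it. *Retreg1*, at −1.97 Mb from *Trio*, stays below 0 (−1.28 in SAM2 and −1.82 in SAM1).

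Levels also shifted along the chromosomes, in long stretches. The median log2 fold change of SAM2 was 0.1 or more from 0 for 15 of 20 chromosomes. On chromosome 14 it was 0.57, with 384 of 513 genes higher (74.9%) and 39 lower (7.6%). The genes of chromosome 15 had a median of 0.32 (391 of 596 higher), those of chromosome 6 of 0.24, chromosome 17 of 0.17 and chromosome 2 of 0.16. The lowest medians were −0.24 on chromosome 7, where 593 of 1085 genes were lower, −0.19 on chromosome 12, −0.18 on chromosome 1 and −0.17 on chromosome 13. The medians of SAM1 were 0.53 on chromosome 14, 0.19 on chromosome 15, 0.13 on chromosome 6 and −0.27 on chromosome 7; both lines share the empty vector libraries. Of the 591 windows, 22 had a median of 0.5 or more, and 14 of these were among the 20 windows of chromosome 14. On that chromosome the first 6 windows, up to 34.1 Mb, had medians of 0.0898 to 0.333 and the other 14 of 0.586 to 1.03. The first 9 windows of chromosome 1, up to 60.4 Mb, lay at −0.642 to −0.404 and the next 22 at −0.18 to 0.11. Chromosome 11 had a median of 0.061, but the 16 windows from 50.3 to 82.9 Mb were at 0.219 to 0.82 and most of those beyond were below 0. The medians of the libraries of a group lay close together, but 3 against 3 libraries cannot reach an exact permutation p below 0.1, so no test was made.

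**Figure D4:**
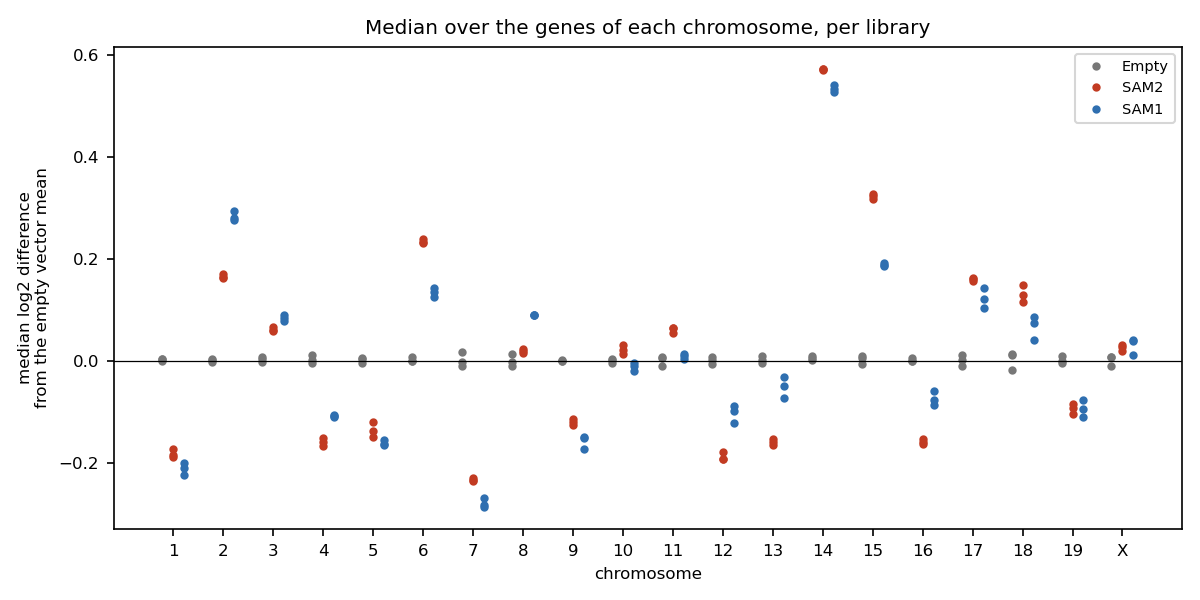
Median log2 difference from the empty vector mean over the listed genes of each chromosome (vertical axis), with 1 point per library for the empty vector, SAM1 and SAM2. The empty vector points lie near 0, chromosome 14 stands near 0.57 in SAM2, and chromosome 7 lies near −0.24.

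Genes of the cell cycle rose as a group. Of 80 listed genes of G2/M and mitosis, which build the spindle, check its attachment and drive cytokinesis, 78 were higher in SAM2 (97.5%, against 35.2% of all genes) and only *Bub3* (log2 fold change −0.30) and *Pttg1* (−0.40), named after their values were seen, were lower, the former with a call that ended after chromosome centring (−0.066, adjusted p = 0.0812). Of these, 58 rose at least 2-fold, and the median was 1.24. The spindle protein gene *Dlgap5* went from 866, 849.8 and 911 to 3660.3, 3629 and 3712 (log2 fold change 2.07, SE 0.035, adjusted p = 3.94e-14). It lies on chromosome 14, where most genes were higher. *Bub1b*, a kinase of the spindle checkpoint, went from 1602, 1577 and 1565 to 4658, 4516 and 4606 (1.54), and *Kif20a*, a kinesin of the central spindle, from 2050.1, 1947 and 1980.1 to 6027, 6219 and 5903 (1.6). No library of SAM2 overlapped with the controls for these 3 genes. The median of the same list in SAM1 was 1.31.

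Genes of DNA replication rose less. Of 55 listed, 44 were higher (80.0%) and 2 lower, with a median of 0.44 (0.59 in SAM1). *Rrm2*, the regulated subunit of ribonucleotide reductase, rose from 1199, 1164 and 1261 to 2488, 2642 and 2623 (log2 fold change 1.1), *Mcm10*, an initiation factor, from 713, 755 and 738 to 1679, 1637 and 1598 (1.15), and *Timeless*, a fork protection factor, from 987, 1001 and 1000 to 1952, 2013 and 1989 (0.99). The inhibitors of cyclin-dependent kinases were split, with 3 of 8 higher and 4 lower. *Cdkn3*, a phosphatase whose mRNA itself peaks in mitosis, rose (1.33), as did *Cdkn2d* (0.88) and *Cdkn1b* (0.46). Of these, *Cdkn3* lies on chromosome 14, where most genes were higher. The senescence-linked *Cdkn2a* and *Cdkn2b* fell from means of 25567 and 3762 to 15296 and 2229 (−0.74 and −0.75), and *Cdkn2c* fell as well (−0.20), a call that ended once the chromosome median was subtracted (−0.039, adjusted p = 0.479). *Cdkn1c* was at a log2 fold change of 0.067 (adjusted p = 0.44), with a sign that turned under quantile normalization (−0.019).

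Promoters of the G2/M genes often hold the cell cycle homology region (CHR), the letters TTTGAA bound by the DREAM and MuvB complexes. Of 68 promoters matched, 45 held these letters on either strand (66.2%), against 18.1% of all promoters and 12% of the promoters of listed genes. For the replication list it was 5 of 43 (11.6%). CCAAT, the letters of the NF-Y factor, was in 50 of 68 (73.5%), against 37.9% of all. Below are CHR windows (GRCm38.p6) of a checkpoint kinase (*Bub1b*), a cyclin (*Ccnf*, log2 fold change 2.01), a condensin subunit (*Ncapd2*, 1.44) and a spindle protein (*Ckap2l*, 1.73), with the CHR in capitals. They were taken, after the values were seen, from the members with the smallest adjusted p whose promoter holds the letters, as were the windows of the other lists below.
Bub1b (chr2:118598231-118598260, plus strand): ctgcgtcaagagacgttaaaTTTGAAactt
Ccnf (chr17:24251522-24251551, minus strand): agacagccagcgTTTGAAttcgcgtcctgg
Ncapd2 (chr6:125191692-125191721, minus strand): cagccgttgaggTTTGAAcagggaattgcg
Ckap2l (chr2:129297163-129297192, minus strand): gtactagaacaaggcgcgcccTTTGAAgga

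The p53 target genes had no common direction. Of 44 listed, 19 were higher (43.2%), 14 lower (31.8%) and 11 did not pass the test, with a median of 0.035. The list also holds *Trp53* itself, which is counted among the 19, so these counts are not of targets alone. The largest changes went both ways. *Perp*, a desmosomal and apoptosis gene, fell from 4272, 4727 and 4569 to 422, 397 and 427 (log2 fold change −3.44). *Ckap2*, a spindle gene that is also on this list, rose by 1.3 and *Gadd45g* changed by −1.46, both chosen after their values were seen.

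Genes of ribosomes and translation moved by small amounts, more often down than up. Large subunit ribosomal protein genes were higher in 12 of 48 and lower in 23 (median −0.12), and small subunit genes were higher in 3 of 32 and lower in 20 (62.5%, against 35.3% of all genes; median −0.21). None of these 80 genes changed 2-fold. *Rplp1*, an acidic stalk protein gene, went from 40558, 43456 and 42134 to 30003, 30377 and 28912 normalized counts (log2 fold change −0.50), while *Rpl7* and *Rplp0* differed by −0.45 and −0.39. *Rps20* (−0.51) was among the 3 small subunit genes with the smallest adjusted p. Ribosomal protein genes have many processed pseudogenes, so their counts are uncertain where reads map to several places.

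Of 126 listed ribosome biogenesis (RiBi) genes, 41 were higher and 61 lower, with a median of −0.071. The 3 with the smallest adjusted p all rose: *Nop9*, a pre-rRNA processing factor, from 1569, 1634 and 1623 to 3063, 3205 and 3035 (0.95), *Ngdn* by 0.90, and *Tcof1*, which promotes rRNA gene transcription, by 0.62. *Nop9* and *Ngdn* lie on chromosome 14, where most genes were higher. Translation factors were higher in 13 of 51 and lower in 29 (median −0.12), but the median turned to 0.023 under quantile normalization. *Eif2b2* (−0.78), *Eif4b* (0.50) and *Eif5* (−0.42) moved most clearly in that list. Of 32 genes on the hnRNP list, 14 were higher and 11 lower with a median of 0.024. The library medians of the list were 0.00565 to 0.0372 in SAM2 and −0.0113 to 0.0176 in the empty vector. This list was drawn by gene symbol, and not every gene on it carries the hnRNP name. It was led by *Taf15* (0.63), *Hnrnpab* (0.45) and *Pcbp4* (−0.48).

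**Figure D5:**
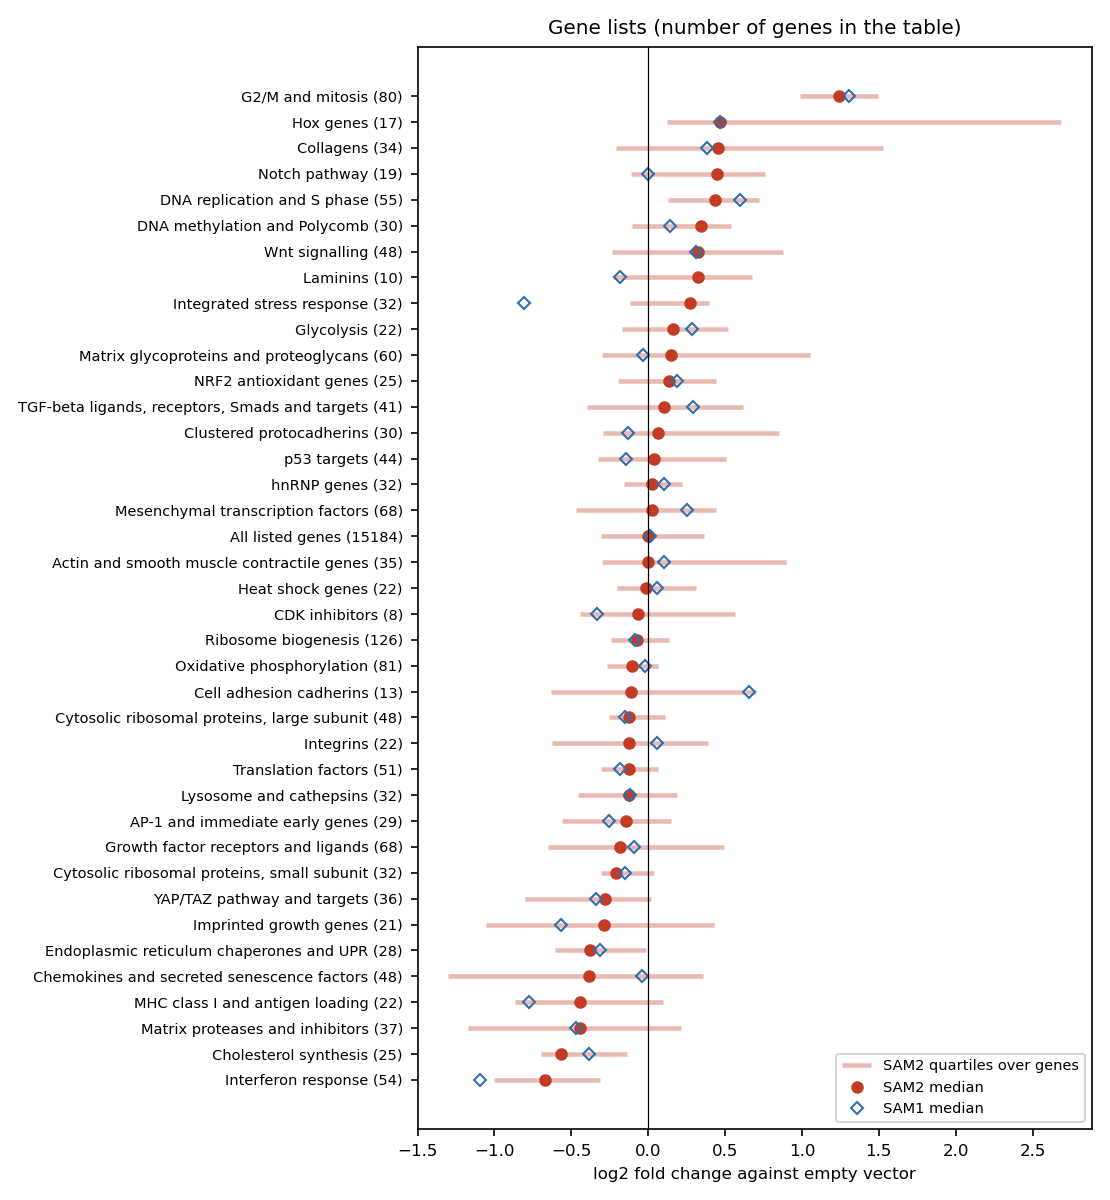
Median log2 fold change of SAM2 and SAM1 against the empty vector for each of 38 gene lists, and for all listed genes, with a bar from the lower to the upper quartile of the SAM2 values and the number of genes in brackets. G2/M genes stand highest in both lines, interferon response genes are low in both, and the integrated stress response is the list on which the lines part most.

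The integrated stress response had the largest difference between the SAM2 and SAM1 medians of all 38 lists. This programme raises the transcription factor ATF4, which in turn drives amino acid synthesis and transport. Of 32 listed genes, 18 were higher in SAM2 than in the empty vector (56.3%) and 8 lower, with a median of 0.27, while the median was −0.81 in SAM1. Compared directly, 30 of 32 were higher in SAM2 than in SAM1 and 1 was lower, against 31.1% above and 29.2% below over all genes. *Cth*, an enzyme of cysteine synthesis, had 4154, 4226 and 4203 normalized counts in the controls, 6980.4, 6966 and 6765 in SAM2 and 1213, 1261 and 1252 in SAM1 (SAM2 against SAM1: log2 difference 2.47, SE 0.030, adjusted p = 1.91e-14). *Mthfd2*, of mitochondrial folate metabolism, rose from 8608, 8775 and 8730.2 to 13550.4, 13673 and 13423 (0.64) and had 7236, 7654 and 7189 in SAM1. Not every member rose in SAM2. The hormone gene *Stc2* fell from 2709, 2651 and 2730.2 to 798, 825 and 868 (−1.7) and lower still in SAM1 (295, 310.1 and 304), and the proline synthesis gene *Pycr1* fell (−0.68). *Atf4* itself differed by 0.36, which fell to 0.040 (adjusted p = 0.278) once the median of its chromosome was subtracted, asparagine synthetase (*Asns*) by 0.49 and *Fgf21* by 0.33 (adjusted p = 0.00706) against −3.07 in SAM1, all chosen, like *Pycr1*, after their values were seen.

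ATF4 reads the composite element TGATGNAA, which was found on either strand in 8 of 30 matched promoters of the list (26.7%), against 4.06% of all promoters. The windows below (GRCm38.p6) show it in capitals for *Asns* and *Pycr1*, which moved in opposite directions in SAM2, and for *Chac1* (log2 fold change 0.52) and *Trib3* (0.39), where the letters read on the minus strand of the gene.
Asns (chr6:7693214-7693243, minus strand): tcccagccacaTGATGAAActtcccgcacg
Pycr1 (chr11:120643833-120643862, minus strand): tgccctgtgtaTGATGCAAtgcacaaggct
Chac1 (chr2:119351038-119351067, plus strand): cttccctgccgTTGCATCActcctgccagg
Trib3 (chr2:152344028-152344057, minus strand): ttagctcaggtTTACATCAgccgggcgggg

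Other stress programmes were mostly lower or divided. Chaperones and other genes of the endoplasmic reticulum unfolded protein response were lower in 19 of 28 (67.9%) and higher in 5, with a median of −0.38. *Hyou1* (−0.71) and *Pdia6* (−1.12), a chaperone and a disulfide isomerase, fell, whereas the thiol oxidase gene *Ero1a* rose from 9132, 8841 and 9298 to 19018, 18682 and 18722 (1.05). Heat shock genes were split, with 10 of 22 higher and 8 lower, and *Hspb1* (1.18), *Hsph1* (0.54) and *Hspa4l* (1.48) at the head of the list. Of 25 NRF2 antioxidant genes 15 were higher and 7 lower (median 0.14), among them *Gsta4* (1.24), *Cat* (0.53) and *Fth1* (−0.94).

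In metabolism the clearest group was cholesterol synthesis. Of its 25 genes, 19 were lower (76.0%) and 3 higher, with a median of −0.57. *Hmgcs1*, which makes HMG-CoA, fell from 31406, 32458 and 32241 to 16785, 16488 and 16560.5 (log2 fold change −0.95, SE 0.025, adjusted p = 2.17e-12), *Idi1*, an isomerase of the same pathway, changed by −0.75, and *Insig1*, the sterol sensor partner, by −0.68. All SAM2 libraries were below all controls for these genes. Glycolysis genes were higher in 11 of 22 and lower in 7 (median 0.16), with rises of the phosphofructokinase gene *Pfkp* (1.11), *Pfkfb4* (1.01) and *Eno2* (0.73). Oxidative phosphorylation genes were higher in 16 of 81 and lower in 39 (median −0.11). The library medians of that list were −0.15 to −0.0801 in SAM2 and −0.0877 to 0.0814 in the empty vector, so the groups overlapped. It had values of −0.88 in *Ndufb3*, −0.50 in *Cox5b* and −0.52 in *Sdhc*. Lysosomal genes were higher in 11 of 32 and lower in 17 (median −0.13, which turned to 0.011 under quantile normalization), among them *Ctsf* (−1.98), *Ctsc* (1.78) and *Hexa* (−0.74).

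Interferon response genes fell together. They are the antiviral genes that interferon signalling turns on, and 46 of 54 were lower in SAM2 (85.2%, against 35.3% of all genes), 14 of them at least 2-fold, with a median of −0.67. The transcription factor gene *Irf7* fell from 1052, 1058 and 1035 to 233, 216 and 219 (log2 fold change −2.23, SE 0.061, adjusted p = 3.34e-12), *Ifit3*, an RNA-binding antiviral protein gene, from 1600, 1765 and 1676 to 425, 414 and 388 (−2.04), and the guanylate-binding protein gene *Gbp2* from 1007, 882 and 994 to 169, 185 and 139 (−2.55). The controls were higher in every library. Only *Eif2ak2* (0.22), *Herc6* (0.57) and *Irf9* (0.22) were higher in SAM2, all named after their values were seen, and *Irf9*, which lies on chromosome 14, turned to −0.35 once the chromosome median was subtracted, which also ended the call of *Eif2ak2* (0.057, adjusted p = 0.438). The median in SAM1 was −1.09, and in the direct test 40 of the 54 genes were higher in SAM2 than in SAM1, against 31.1% of all genes.

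Letters of the interferon-stimulated response element (ISRE, here GAAANNGAA) were found on either strand in 25 of 40 matched promoters of the list (62.5%), against 8.57% of all promoters. The windows below (GRCm38.p6) show it in capitals for *Ifit3* and *Gbp2*, for the second guanylate-binding protein gene *Gbp3* (log2 fold change −1.78) and for *Bst2*, which tethers budding virions (−1.24). In the first 3 it reads on the opposite strand.
Ifit3 (chr19:34583417-34583446, plus strand): tactttcctcTTCCCTTTCacaaacactga
Gbp2 (chr3:142620595-142620624, plus strand): ctcttttagtTTCACTTTCactgtcttaag
Gbp3 (chr3:142559996-142560025, plus strand): cagtttcagtTTCTATTTCccagatccctg
Bst2 (chr8:71537583-71537612, minus strand): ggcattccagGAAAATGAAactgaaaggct

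Genes of antigen presentation and secreted inflammatory factors were also more often lower. Of 22 genes of MHC class I and antigen loading, 15 were lower (68.2%) and 3 higher (median −0.44), with *H2-D1* at −0.82 and *H2-Q4* falling from 1329.9, 1356 and 1257 to 248, 248 and 247 (−2.4). *H2* class I genes are close paralogs, and their reads may be divided uncertainly. *Cd74*, the invariant chain of class II, rose from 247, 271 and 298 to 1103, 1111 and 1053 (2.0). Of 48 chemokines and secreted senescence factors, 29 were lower (60.4%) and 13 higher, with a median of −0.38 against −0.039 in SAM1. *Igfbp3*, a binding protein of insulin-like growth factors, fell from 2534, 2465 and 2474 to 255, 261 and 262 (log2 fold change −3.26, SE 0.051, adjusted p = 2.16e-14). *Cxcl10*, a chemokine for T cells, fell from 1819, 1818 and 1803 to 423, 418 and 394 (−2.14).

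Genes of the extracellular matrix moved in both directions, with rises in most collagens and falls in most proteases. Of 34 collagen genes, 19 were higher (55.9%) and 9 lower, 11 rose at least 2-fold, and the median was 0.45. The basement membrane collagens *Col4a1* (25497, 24105 and 23896 to 71009.5, 70296 and 72266, log2 fold change 1.54) and *Col4a2* (1.36) rose together, and the cartilage collagen *Col2a1* went from 183, 187 and 178 to 1919, 1923 and 2009.8 (3.41). Of the genes of type I collagen, the main fibrillar collagen of fibroblasts, *Col1a1* was at 0.39 and *Col1a2* at 0.036 (adjusted p = 0.305), the latter with a sign that turned under quantile normalization (−0.034) and after chromosome centring (−0.20). Both were chosen after their values were seen. *Loxl2*, a lysyl oxidase that cross-links collagen, had 879.8, 863 and 853 in the empty vector and 14901, 15136 and 15194 in SAM2 (log2 fold change 4.12, SE 0.032, adjusted p = 2.15e-17). It lies on chromosome 14 and rose in SAM1 too, to a mean of 5342. Matrix glycoproteins and proteoglycans were higher in 30 of 60 and lower in 19, and the decorin gene *Dcn* fell from 11477, 11984 and 11982 to 2481, 2610.1 and 2524 (−2.22), as did the fibulin gene *Efemp1* (−1.68).

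Among laminins, the glycoproteins of basement membranes, *Lama5* separated the lines. It had 1402, 1210.1 and 1252 normalized counts in the controls, 5668, 5574 and 5871 in SAM2 and 895, 779 and 911 in SAM1, so that it rose in SAM2 (log2 fold change 2.15, SE 0.063, adjusted p = 6.71e-12) and fell in SAM1 (−0.58). Of 10 laminin genes listed, 6 were higher in SAM2 and 3 lower. Higher were *Lama5*, *Lama4* (0.76), *Lamb1* (0.43), *Lamb3* (2.42, from a mean of 5.2), *Lamc1* (0.30) and *Lamc3* (0.34, adjusted p = 0.0202, a call lost without SAM2 replicate 2 at 0.0563, under edgeR at 0.0567, under DESeq2 at 0.138, under quantile normalization at 0.102 and after chromosome centring at 0.225). Among those lower were *Lama2* (−0.60) and *Lamb2* (−0.27), and *Lama3*, at means of 9.21 and 8.8, did not pass the test. Matrix proteases and their inhibitors moved the other way, with 23 of 37 lower (62.2%), 11 of them at least 2-fold, and a median of −0.44. *Mmp2*, a gelatinase, fell from 104794, 106380 and 103126 to 45817, 45985 and 46542 (−1.18), its inhibitor *Timp2* from 212226, 202390 and 204350 to 82109, 81945 and 82741 (−1.33), and the aggrecanase *Adamts5* from 18033, 16574 and 17599 to 4647, 4423 and 4601 (−1.93). On the integrin list, drawn by gene symbol, 8 of 22 genes were higher and 12 lower, led by *Itgbl1* (−1.1), *Itga1* (2.36) and *Itgb3* (1.72).

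The contractile list was divided. Of 35 actin and smooth muscle genes, 13 were higher (37.1%) and 15 lower (42.9%), near the 35.2% and 35.3% of all genes. The median was −0.0015 (0.10 in SAM1, with 19 higher and 12 lower), and all 9 that changed at least 2-fold in SAM2 rose. The thin filament gene *Cnn1* (calponin) went from 452, 435 and 387 to 4469, 4473 and 4308 (log2 fold change 3.38, SE 0.054, adjusted p = 2.27e-14), the enteric actin *Actg2* from 123, 144 and 131 to 1493, 1513 and 1427 (3.47), and the light chain *Myl9* from 1130.4, 1166 and 1107 to 4997, 5117 and 5157 (2.16). *Acta2* (1.19) and *Myocd*, the coactivator of smooth muscle genes (4.04, from a mean of 0.389 to 21.1), rose too, while *Tpm1* fell (−0.82), all 3 chosen after their values were seen. The YAP/TAZ list, which holds *Wwtr1* and its coregulated genes, was lower in 21 of 36 (58.3%) and higher in 8 (median −0.28). *Ankrd1*, a much used YAP/TAZ target, fell from 55147, 56874 and 55925 to 20094, 19890 and 19746 (−1.49).

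Signalling genes were divided. Of 41 genes of TGF-β and BMP signalling, 20 were higher and 18 lower. *Grem1*, a secreted BMP antagonist, fell in SAM2 and met the rule for private changes given below, from 40388, 38862 and 39898 to 13572, 13210.2 and 13214, with 44419, 42793 and 44736 in SAM1 (log2 fold change −1.57, SE 0.028, adjusted p = 6.56e-14). *Bmp1*, a procollagen protease, rose from 5587, 5391 and 5247 to 15692, 15487 and 15427 (1.52). The genes of 2 BMP ligands, *Bmp4* (1.5) and *Bmp6* (1.53), rose in SAM2 and were chosen after their values were seen. *Bmp1* and *Bmp4* lie on chromosome 14, where most genes were higher. Wnt genes were higher in 29 of 48 (60.4%) and lower in 14 (median 0.33), with *Dkk2* (−2.17), *Wnt10b* (2.32) and *Tcf7l1* (1.66) changed most clearly. Notch pathway genes were higher in 11 of 19 and lower in 5 (median 0.45), and the receptors *Notch1* (69.6, 57.8 and 66.6 to 389.7, 386 and 408, 2.6) and *Notch3* (1.45) rose while the DNA-binding partner *Rbpj* was at −0.56. Growth factors and their receptors were lower in 38 of 68 (55.9%) and higher in 24, among them *Fgf7* (0.96), *Fgf10* (−2.61) and *Nrp2* (−1.88). Immediate early genes were lower in 16 of 29, with *Jun* (−0.77), *Klf6* (−0.81) and *Dusp1* (0.64) in front.

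Genes that record the origin of a cell along the body differed as well. Of 17 listed *Hox* genes, 12 were higher in SAM2 (70.6%), 8 of them at least 2-fold, and 3 lower. In SAM1 10 were higher and 5 lower, and the median was 0.46 in SAM2 and 0.47 in SAM1. The medians of the 3 SAM2 libraries were 0.462, 0.528 and 1.03. *Hoxb9* had 393, 333 and 353 normalized counts in the controls, 3257, 3193 and 3252 in SAM2 and 253, 258 and 228 in SAM1 (log2 fold change 3.17, SE 0.065, adjusted p = 2.64e-13). *Hoxb8* (158, 148 and 152 to 887, 893 and 901, 2.54) and *Hoxb6* (2.55) rose beside it, as did *Hoxb7* (2.39), whereas *Hoxb4* of the same cluster fell (−0.25). From the *Hoxa* cluster *Hoxa3* (2.74), *Hoxa5* (3.12) and *Hoxa7* (2.69) rose, and *Hoxd8* (−0.97) and *Hoxd9* (−1.57) fell. The genes of the last sentence, *Hoxb7* and *Hoxb4* were chosen after their values were seen. Transcription factors of mesenchyme were divided, with 29 of 68 higher and 25 lower, among them *Nr2f2* (−1.27), *Foxd1* (1.66) and *Irx1* (−1.22). Chromatin genes of DNA methylation and Polycomb were higher in 17 of 30 and lower in 8 (median 0.34), with *Uhrf1* (0.90), *Phf19* (1.04) and *Ezh2* (0.61) all higher.

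A change was counted as private to SAM2 when it reached 2-fold against both the empty vector and SAM1, with an adjusted p below 0.05 in each contrast, and when SAM1 lay within 0.5 of the empty vector on the log2 scale. By this rule 72 genes rose (0.474% of all genes) and 99 fell (0.652%). The counts describe the rule, since both contrasts share the SAM2 libraries. The limit of 0.5 does not mean that SAM1 was unchanged. In the limma contrast of SAM1 with the empty vector, *Gap43* (−0.35, adjusted p = 1.19e-05) and *Hoxb8* (0.30, 0.00097) moved as in SAM2. *Galnt13* (0.48, 0.00019) and *Eomes* (0.42, 0.00051) moved the other way, and *Slc7a3* did not pass that test (0.269). Only 32 of the 72 and 24 of the 99 reached a mean of 100 normalized counts in the higher group, so most were low. The 72 genes were spread over 18 chromosomes, with 11 on chromosome 11, and the 99 over 19, with 12 on chromosome 9.

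The private rise with the highest level in SAM2 among the 10 largest was that of *Slc7a3*, a transporter of cationic amino acids, with 259, 256 and 248 normalized counts in the controls, 257, 261 and 281 in SAM1 and 2232, 2162 and 2136 in SAM2 (log2 fold change 3.09, SE 0.052, adjusted p = 4.02e-14). *Sprr2h* rose from a mean of 26.5 to 351, and *Atp2a3*, a calcium pump of the endoplasmic reticulum, from 27 to 187. Genes of nerve cells and hormones followed, and whether they share a pathway was not tested. *Kif1a*, an axonal kinesin, rose by 2.25, *Abat*, which degrades GABA, by 1.96, *Hsd17b1*, which makes estradiol, by 1.77, the potassium channel gene *Kcnj15* by 1.76, *Gm38403* by 1.73 and the adrenergic receptor gene *Adrb1* by 1.6. The genes *Ero1a*, *Nid2*, a basement membrane linker (1.26), and *Pck2*, a mitochondrial enzyme (1.01), also met the rule and the last 2 were chosen after their values were seen. *Ero1a*, *Nid2* and *Pck2* lie on chromosome 14, where the median over all genes was 0.57, and its part in these rises was not tested.

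Private falls concerned *Gap43*, a growth cone protein gene, with 2190.3, 2311 and 2271 normalized counts in the controls, 1733, 1877 and 1705 in SAM1 and 545, 563 and 528 in SAM2 (log2 fold change −2.05, SE 0.046, adjusted p = 5.25e-13). *Galnt13*, a glycosyltransferase, fell from a mean of 349.7 to 76, and *Slco4a1*, an organic anion transporter, from 337 to 79.7. *Il33*, an alarmin cytokine, fell from 356, 415 and 418 to 113, 124 and 113 (−1.75). Its receptor gene *Il1rl1*, chosen after its values were seen, was at means of 172960 and 57534 (−1.59) and was low in SAM1 as well (51309). Other private falls were in *Pi15* (−1.89), the long noncoding RNA *Wincr1* (−1.71), the T-box gene *Eomes* (−1.69) and the sulfotransferase *Chst7* (−1.64). The histone gene *H2ac6* fell (−1.66), and *H2bc4* (−1.15), *H2bc6* (−1.7) and *H3c2* (−1.99), chosen after their values were seen, were lower too, although *H2bc4* did not meet the rule for private changes. A window at 21.7 to 23.8 Mb of chromosome 13, which reaches into this histone cluster, was at a median of −0.17 in SAM2 and 0.42 in SAM1. Most histone mRNAs lack a poly(A) tail, so a poly(A)-selected library samples only a part of them. The macrophage gene *Csf1r* (−1.01), also chosen after its values were seen, met the rule while *Ptprc*, *Adgre1*, *Tyrobp* and *Itgam* were not listed.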

How the data were processed

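Poly(A)-selected RNA of 9 MEF libraries was sequenced in paired-end mode. Per the labels and the study's methods, the authors checked reads with FastQC (v0.11.0), aligned them to GRCm39 with TopHat2 and Bowtie2, allowing reads that map to several places, counted them on Gencode genes with HTSeq, normalized the counts with DESeq2 and kept genes above a low-count limit in part of the libraries. The deposited values are therefore a normalized signal, that is counts divided by a size factor, and genes removed by the authors' filter cannot be recovered. The strand setting of HTSeq is not given in the sources used here, although the kit marks strand.

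From these values log2(value + 1) was fitted with limma (3.58.1, R 4.3.3; empirical Bayes with trend) over all 9 libraries in 3 groups, with Benjamini-Hochberg adjustment over 15184 genes and a threshold of 0.05. A fold change on this scale understates the change of low genes. Values were whole multiples of 1 read in 100% of cases (within 0.05 reads, for values below 2000 reads), which gave reads for edgeR (4.0.16) and DESeq2 (1.42.0) as alternatives. The chi-square per gene between libraries of a group was 1.55 to 2.33 in SAM2, 1.46 to 9.49 in SAM1 and 11.5 to 13.8 in the empty vector. No library was therefore a copy of another. Sampling noise alone gives about 1, so these values cannot tell separate cultures from repeated libraries of the same RNA. The spread differed between the groups, whereas the limma fit used a shared estimate for all 3. Gene coordinates are GRCm39; of the symbols, 14791 had a single match in the annotation, 68 had several and 325 had none. Promoter sequences are from RefSeq (GRCm38.p6). The limma fit was tested on simulated counts, and the other steps were not tested in this way.

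The comparison, the 38 gene lists and the tests were chosen with earlier results of these data known. Named genes are a fixed set of 9, the 10 largest rises and falls (adjusted p below 0.05, mean of 100 in the higher group, no overlap of libraries), the 10 largest private rises and falls, the 3 members of each list with the smallest adjusted p, members of lists with 12 or fewer genes, and the 3 highest genes of windows described. Others are marked in the text, and a few genes that the rule names are not reported here. Alternatives were another pseudocount, a stricter filter, quantile normalization, a replicate block, fewer libraries, edgeR, DESeq2, chromosome centring, and leaving out each empty vector or SAM2 library.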

Additional observations from a re-analysis of the deposited data

Results flagged for a closer look

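Several named genes differed between SAM2 and SAM1 by at least 2 on the log2 scale in the limma contrast of the 2 lines, and are listed for that reason. Values are the log2 difference, SAM2 minus SAM1, on the log2(value + 1) scale. Genes of the cornified envelope were the largest group. Higher in SAM2 were *Sprr2f* (11.05), *Sprr2b* (8.4), *Lor* (8.08), *Sprr2d* (7.99), *Sprr2g* (7.04), *Sprr2e* (6.54), *Sprr2k* (5.55), *Sprr2h* (4.16), *Prr9* (3.82), *Lelp1* (3.82) and *Sprr1a* (2.29). Their SAM1 values are in part 0 to 3 reads, where the difference is set by the added 1. The late cornified envelope genes *Lce1h* (−4.63) and *Lce1g* (−3.78) were lower in SAM2.

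Other genes higher in SAM2 than in SAM1 were *Kap* (9.16, with SAM1 at 0 in all 3 libraries), *Hoxb9* (3.71), *Fgf21* (3.4), *Slc7a3* (3.03), *Atp2a3* (2.94), *Lama5* (2.73), *Cth* (2.47), *Hoxb8* (2.24) and *Hsd17b1* (2.11). Those lower were *Rps6ka6* (−3.52), *Kdr* (−3.13), *Galnt13* (−2.67), *Slco4a1* (−2.44) and *Eomes* (−2.11). *Kdr*, a receptor for vascular endothelial growth factor, had 238, 217 and 176 normalized counts in the controls, 548, 504 and 555 in SAM2 and 4712, 4490.1 and 4877 in SAM1. It was named after its values were seen.

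The integrated stress response list had a median above the empty vector in every SAM2 library and below it in every SAM1 library, and the medians of the list differed by 1.07 between the lines. The median over its genes of SAM2 minus SAM1 was 0.952. The difference over the list was not tested.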

How the results depend on the processing

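The counts of genes higher (4736 to 5551) and lower (5019 to 5620) stayed within 1.5 times the values reported under every alternative. The 2-fold counts moved most with a normalized count above 10 required in all 9 libraries, which tested 13171 genes and gave 782 higher and 471 lower. The private falls numbered 55 with a pseudocount of 5 and 46 with that filter, so many rest on low counts. Leaving out each empty vector or SAM2 library in turn gave 4993 to 5315 genes higher and 5020 to 5230 lower. No SAM1 library was left out singly. edgeR called 10634 genes and DESeq2 10120, and every call shared with limma had the same sign. Quantile normalization shared 9914 of the 10699 calls, 9897 of them with the same sign, and chromosome centring shared 8778, 8551 of them with the same sign. Under quantile normalization, which shifted the median of all genes to −0.034, the medians of translation factors (0.023), lysosomal genes (0.011) and chromosome 8 (−0.0015) turned, as did *Mdm2* (0.0071), *Myc* (0.028), *Cdkn1c* (−0.019) and *Col1a2* (−0.034). Chromosome centring turned *Fbl* (0.059), *Col1a2* (−0.20) and *Irf9* (−0.35), and ended calls, among them those of *Cdkn2c*, *Atf4*, *S100a11*, *Lamc3*, *Eif2ak2*, *Bub3* and *Ubqln1*. *Lama3*, with fewer than 10 normalized counts a group, ranged from −0.45 to 0.14 as single libraries were left out, and turned without empty vector replicate 2 (0.068), SAM2 replicate 1 (0.0021) or SAM2 replicate 3 (0.14). The cause of these turns was not tested. Genes on a few reads, such as *Lelp1*, *Lypd6*, *Slc24a3* and *Myocd*, are limited by depth.

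The deviations of libraries that share a replicate number had correlations of 0.0533, 0.199 and −0.0264 over 11341 genes. Those of libraries with unlike numbers ran from −0.204 to 0.154. With 3 libraries in each group, these values cannot settle whether the numbers pair the libraries. With the replicate number as a block 5551 genes were higher and 5544 lower, 1298 and 734 at least 2-fold, and 72 and 100 private to SAM2.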

Other observations

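Imprinted genes, which are expressed from a single parental allele and many of which act on growth, were more often lower in SAM2 (12 of 21) than higher (6 of 21), with a median of −0.28. *Ndn*, the necdin gene, fell from 1812, 2074 and 1904 to 151, 142 and 153 normalized counts (log2 fold change −3.69, SE 0.059, adjusted p = 2.27e-14 in limma), and was also below the controls in SAM1 (584, 583 and 609). *Dlk1*, a membrane ligand related to Notch ligands, fell from 14024, 15066 and 13979 to 4457, 4415 and 4424 (−1.69). *Peg3*, a zinc finger gene, went the other way, from 203, 169 and 175 to 1579, 1547 and 1625 (3.12), with 1905, 1781 and 1923 in SAM1. No library of SAM2 overlapped with the empty vector for these 3 genes.

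Adhesion genes were divided. Of 13 listed cadherins, 4 were higher and 5 lower. P-cadherin (*Cdh3*) rose from 1019.9, 1021 and 999 to 2965, 2969.9 and 3033 (1.56), while N-cadherin (*Cdh2*, −0.94) and the mesenchymal *Cdh11* (−0.76) fell. The list had a median of −0.11 in SAM2 and 0.66 in SAM1, but the 3 SAM2 libraries lay at −0.159, −0.59 and 0.16, on both sides of 0. Of 30 clustered protocadherins, whose isoforms mark single cells of the nervous system, 12 were higher and 7 lower, with *Pcdhga1* (1.58) and *Pcdhga11* (1.52) higher and *Pcdhb17* lower (−0.80). The *Pcdhg* isoforms share their 3′ exons, so reads of those exons may be divided uncertainly among them.

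Genes of the mitochondrial genome, of which 17 were listed, had a median log2 fold change of 0.22 in SAM2 and 1.04 in SAM1, with 9 higher and 1 lower in SAM2.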
